A study of Mus musculus with 4 samples.

Results

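DNA replication genes were followed in donor T cells that had been transferred into irradiated mice and recovered during acute graft-versus-host disease. The set holds 44 of the 31053 genes in the count tables, chosen by gene name, and all 44 names were found. By role they comprise 10 origin-licensing genes, 5 genes of helicase activation, 5 of nucleotide supply, 6 of polymerase and primase, 6 of the sliding clamp and flap processing, 6 of chromatin assembly, cohesion and uracil repair, and 6 G1-to-S regulators and checkpoint genes.

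Before S phase, the origin recognition complex, with Cdc6 and Cdt1, loads the Mcm2-7 ring onto DNA, and in S phase Cdc45, the GINS complex and Mcm10 turn that ring into the moving helicase. Primase and DNA polymerase alpha start each strand, polymerases delta and epsilon extend it on the Pcna clamp, and Fen1 and Lig1 join the fragments of the lagging strand. Many of these genes are targets of E2F transcription factors, which are released when cyclin E and other cyclin complexes inactivate the retinoblastoma protein family, so their transcripts mark T cells that have entered division.

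The recipients were BALB/c mice given a lethal dose of 900 cGy together with marrow depleted of T cells, taken from C57BL/6 mice that carry both CD45 alleles (CD45.1+CD45.2+). Regulatory T (Treg) cells, sorted as CD4+ Foxp3-GFP+ CD25hi from CD45.2+ Foxp3-GFP donors, were given first, and CD45.1+ wild-type conventional CD4+ and CD8+ T cells followed 2 days later. The 4 libraries, 1 for each Treg genotype, were made from spleen cells sorted 8 days after induction as PI-, H-2Kb+ and TCRb+. The Treg donors were CD226+/+ TIGIT+/+ (the wild-type library), CD226-/- TIGIT+/+ (CD226 knockout), CD226+/+ TIGIT-/- (TIGIT knockout) or CD226-/- TIGIT-/- (double knockout), and the conventional T cells were wild type in all 4. CD226 is an activating and TIGIT an inhibitory receptor for the same ligands. Each library was a pool of 3, and the record leaves it unclear whether recipients or donors were pooled. Genotypes are named as the labels give them. Values per library follow this order throughout.

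The measurement is the number of unique molecular identifiers (UMIs) per gene, from 3' single-cell RNA libraries stained with barcoded antibodies to CD45.1 and CD45.2. After filtering, 7654, 9045, 10383 and 9058 cells remained. Cells with a log2 CD45.1/CD45.2 antibody ratio below -0.6 are called Treg-origin here (332 to 462 cells per library, 1747477 to 2305761 UMIs), and cells above 2.2 were called conventional CD4 (2750 to 3100 cells, 25441326 to 29267615 UMIs) or conventional CD8 (2098 to 3415 cells, 29270701 to 39929802 UMIs) by their Cd4 or Cd8a and Cd8b1 UMIs. Foxp3, the Treg-defining transcription factor, lay at 47.3 to 64.1 CPM (UMIs of a gene scaled to the class total, as in all CPM values here) in the Treg-origin class and at 1.18 to 2.26 CPM in the CD4 class. Cd226 in the Treg-origin class was 31.2, 4.01, 32.5 and 4.39 CPM, low in the 2 libraries whose Treg donors lacked it. Tigit was 9.11, 5.15, 8.596 and 5.86 CPM, so that it was not lowest in the 2 libraries labelled as lacking TIGIT, and a 3' count need not lie in the part of a gene that was disrupted. Xist was 685 to 758 CPM in the Treg-origin class and at most 3.16 CPM in the conventional classes, while Ddx3y was 34.3 to 43.4 CPM in the conventional classes and at most 1.95 CPM in the other. Donor sex, CD45 allele, day of transfer and class therefore cannot be told apart.

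To show what the start sites of these genes have in common, RefSeq promoter windows (GRCm38.p6, 250 bases before to 50 after the start) were read for 37 of the 44 members. The windows were searched on both strands for the E2F letters TTTCCCGC, TTTGGCGC, TTTCGCGC and TTTGCCGC. Some genes had more than 1 window (42 windows for the 37 members), and a gene was counted if any of its windows held a match. These letters stood in windows of 15 of the 37 members (40.5%), of 14 of 43 other replication genes (32.6%), of 1 of 34 mitosis genes (2.94%) and of 2.61% of 27025 genes. They were found in 7 of 9 licensing genes and in 0 of 5 nucleotide-supply genes. The 15 matches are shown with 11 bases on each side, where the window allows, on the strand of the gene, with the E2F letters or their reverse complement in capitals. Where a window held more than 1 match, the one nearest its upstream end for the first of the 4 letter strings found is shown.
Orc1 (chr4:108579416-108579445, + strand): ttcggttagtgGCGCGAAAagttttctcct
Cdc6 (chr11:98908002-98908031, + strand): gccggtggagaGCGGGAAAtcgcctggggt
Cdt1 (chr8:122568036-122568064, + strand): ggaactaccttTTTGGCGCcatggcgcaa
Mcm3 (chr1:20820275-20820304, - strand): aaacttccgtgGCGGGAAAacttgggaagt
Mcm5 (chr8:75109349-75109378, + strand): caagaactttcGCGCCAAAacgtccagcct
Mcm6 (chr1:128359797-128359826, - strand): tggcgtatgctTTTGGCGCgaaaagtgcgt
Mcm7 (chr5:138172030-138172059, - strand): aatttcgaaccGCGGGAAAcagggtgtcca
Gins3 (chr8:95633507-95633536, + strand): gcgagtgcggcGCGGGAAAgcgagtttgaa
Pola1 (chrX:93632275-93632304, - strand): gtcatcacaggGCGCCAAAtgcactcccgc
Pold1 (chr7:44548766-44548787, - strand): cgtatcttgtgGCGGGAAAagc
Rfc3 (chr5:151651190-151651219, - strand): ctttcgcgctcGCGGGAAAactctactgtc
Lig1 (chr7:13278841-13278870, + strand): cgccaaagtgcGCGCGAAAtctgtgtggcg
Pclaf (chr9:65890307-65890336, + strand): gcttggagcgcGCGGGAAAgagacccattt
Uhrf1 (chr17:56304117-56304146, + strand): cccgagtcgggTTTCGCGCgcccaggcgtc
Clspn (chr4:126556990-126557019, + strand): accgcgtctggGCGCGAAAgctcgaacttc

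The letters lay close to the start in several of these genes: the first capital base was 27 bases before the start in Orc1, 5 before it in Pclaf and at base 1 of the transcript in Rfc3. In Cdc6 and Pola1 it was 138 bases before the start, and in Uhrf1 185 bases before it. CHR letters (TTTGAA and TTCGAA, both strands), an element of many late cell-cycle promoters, showed the opposite distribution: 7 of 37 members (18.9%) held them, against 28 of 34 mitosis genes (82.4%) and 21.7% of all genes. CCAAT stood in windows of 22 of 37 members (59.5%), 27 of 34 mitosis genes (79.4%) and 41.1% of all genes. The members with and without E2F letters had similar median log2 differences in each comparison below: -0.72 and -0.71 for Treg-origin against CD4 cells, 0.32 and 0.27 for CD8 against CD4 cells. A match is a description of these letters and not a binding site, and its part in any transcript level was not tested.

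Treg-origin cells had less replication RNA than the conventional CD4 cells of the same library. The 44 members together made up 3082, 2666, 3413 and 3060 CPM of the Treg-origin class (3055 ± 305, SD, n = 4 libraries) and 5099, 4907, 5246 and 4787 CPM of the CD4 class (5010 ± 203). The classes did not overlap. In the edgeR quasi-likelihood test with the library as a block, all 44 members were lower in Treg-origin cells at an adjusted p of at most 0.05 and 0 were higher, where 20.5% of the 10775 genes tested were lower and 21.5% higher. The members' median log2 difference was -0.71 (range -1.246 for Orc1 to -0.30 for Lig1), against 0.01 over all genes tested. The CPM values of the classes did not overlap for 42 of the 44 members, against 19.2% of all genes in that direction, and the exceptions were Mcm10 and E2f1. In such sums, fewer dividing cells and less RNA per dividing cell cannot be told apart.

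**Figure D1:**
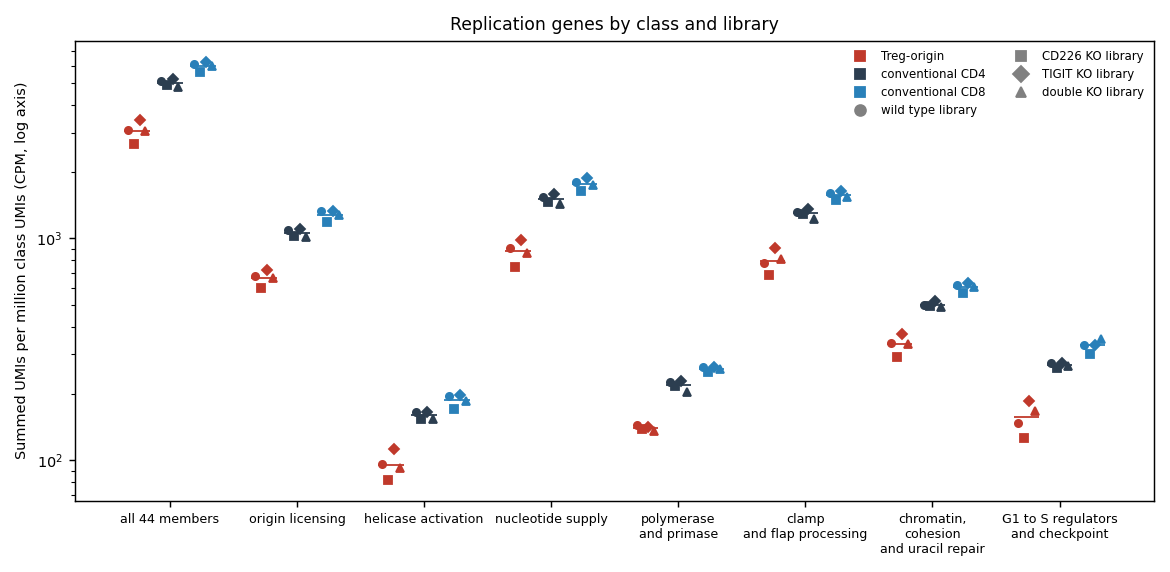
Summed CPM (log axis) of all 44 members and of each role, for 4 libraries (symbols) in 3 classes (colours), with the mean of the 4 libraries as a line. In all 7 roles the Treg-origin values lie below the CD4 values, and for all 44 members together they run from 2666 to 3413 CPM, against 4787 to 5246 CPM in CD4 cells and 5613 to 6257 CPM in CD8 cells.

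Among the licensing genes (10 of 10 lower, median log2 difference -0.73), Mcm3 and Mcm6, subunits of the helicase ring, had the highest levels. Mcm3 (ENSMUSG00000041859, chr1:20802968-20820312) was 127, 117, 115 and 121 CPM in Treg-origin cells and 211, 194, 209 and 193 CPM in CD4 cells. This is a log2 difference of -0.76 (SE 0.06, adjusted p = 3.4e-07), and every Treg-origin library lay below every CD4 library. Mcm6 was 123, 124, 150.4 and 127 CPM against 189.7, 183, 181 and 174 CPM (log2 difference -0.49, SE 0.06, adjusted p = 4.41e-05). Orc1 and Cdc6 showed the largest differences of the 10. Orc1, the largest subunit of the origin recognition complex, was 5.20, 2.29, 4.78 and 3.42 CPM against 10.0, 8.68, 9.74 and 9.001 CPM (log2 difference -1.246, SE 0.22, adjusted p = 0.000487), with as few as 4 UMIs in 1 Treg-origin sum. Cdc6, which recruits the ring to the origin, was 16.5, 7.44, 16.7 and 13.7 CPM against 28.5, 26.2, 30.9 and 22.6 CPM (log2 difference -0.99, SE 0.14, adjusted p = 0.000109). Its value in the CD226-knockout library stood below the other 3.

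Helicase activation was lower for 5 of 5 genes (median log2 difference -0.74). Cdc45, the component that joins the ring in S phase, was 32.5, 22.3, 26.7 and 29.8 CPM in Treg-origin and 53.6, 51.4, 56.1 and 51.5 CPM in CD4 cells (log2 difference -0.93, SE 0.09, adjusted p = 2.18e-06). Gins2, a GINS subunit, was 33.4, 31.5, 45.4 and 36.6 CPM against 60.4, 52.8, 57.6 and 56.5 CPM (log2 difference -0.64, SE 0.08, adjusted p = 2.95e-05). Neither gene's classes overlapped. Mcm10, which helps to start the assembled helicase, did overlap: its Treg-origin value of 21.0 CPM in the TIGIT-knockout library lay above the lowest CD4 value of 20.8 CPM. The other 3 libraries were 9.98, 12.6 and 10.2 CPM, and the log2 difference was -0.80 (SE 0.15, adjusted p = 0.000716).

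Nucleotide supply (5 of 5 lower, median log2 difference -0.71) held the steepest difference of an abundant member. Dut, the dUTPase that keeps uracil out of DNA and supplies dUMP (ENSMUSG00000027203, chr2:125247190-125258608), was 341, 272, 342 and 339 CPM in Treg-origin cells and 644, 642, 676 and 658 CPM in CD4 cells. This is 0.489 of the CD4 level (log2 difference -1.03, SE 0.05, adjusted p = 8.42e-09), and the 2 classes were far apart in every library. Rrm2, the regulated subunit of ribonucleotide reductase, was 194, 164, 229 and 183 CPM against 365, 342, 395 and 306 CPM (log2 difference -0.88, SE 0.06, adjusted p = 6.54e-08). Tyms, the thymidylate synthase that works downstream of Dut and is named here after its values were seen, differed less. Its levels were 200.4, 163, 228 and 166 CPM against 255, 229.6, 262 and 231 CPM (log2 difference -0.39, SE 0.06, adjusted p = 0.000161).

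The polymerase and primase genes (6 of 6 lower, median log2 difference -0.62) varied among Treg-origin libraries to different degrees. Prim1, the catalytic primase subunit, was 52.5, 48.6, 52.5 and 57.1 CPM against 86.5, 83.6, 81.8 and 78.3 CPM (log2 difference -0.66, SE 0.07, adjusted p = 5.24e-06). Pole, the catalytic subunit of the leading-strand polymerase, was 12.1, 12.02, 12.4 and 12.7 CPM against 21.4, 21.4, 21.5 and 21.6 CPM (log2 difference -0.81, SE 0.12, adjusted p = 0.000111). For both genes the 4 libraries of a class lay close together and the classes were well apart. Pold1, the catalytic subunit of polymerase delta, was less even, at 17.3, 22.3, 19.6 and 12.2 CPM against 33.5, 29.8, 33.3 and 26.8 CPM (log2 difference -0.81, SE 0.11). The double-knockout library was the lowest in both classes, and the classes did not overlap. Pole had as few as 21 UMIs and Pold1 as few as 25 in a Treg-origin sum. Whether their evenness differs beyond counting error was not tested. Pola1, the catalytic subunit of polymerase alpha, had a log2 difference of -0.59 (SE 0.08).

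Of the clamp and flap-processing genes (6 of 6 lower, median log2 difference -0.60), Pclaf, a small Pcna-binding protein, was the most abundant of the 44 members. It was 365, 359, 448 and 402 CPM in Treg-origin cells and 713, 723, 754 and 652 CPM in CD4 cells (log2 difference -0.87, SE 0.05, adjusted p = 2.74e-08). Pcna, the clamp itself, was 123, 91.0, 115 and 114 CPM against 179.7, 167, 178 and 171 CPM (log2 difference -0.67, SE 0.07, adjusted p = 3.73e-06). The CD226-knockout library was the lowest of the 4 Treg-origin sums for both genes. Rfc4, of the clamp loader, had a log2 difference of -0.87 (SE 0.08), and Lig1, the ligase, of -0.30 (SE 0.07, adjusted p = 0.00257), the smallest of the 44.

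Chromatin, cohesion and repair genes (6 of 6 lower, median log2 difference -0.70) ran from Slbp, the histone mRNA binding protein, at -0.47 (SE 0.06), to Ung, the uracil-DNA glycosylase, at -0.89 (SE 0.11). Ung was 21.7, 21.7, 21.0 and 14.2 CPM in Treg-origin and 36.9, 36.9, 35.0 and 35.9 CPM in CD4 cells, lowest in the double-knockout library. Uhrf1, which brings the maintenance DNA methyltransferase to new DNA, had a log2 difference of -0.72 (SE 0.07), and Chaf1a, of the chromatin assembly factor, of -0.82 (SE 0.09).

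The regulators and checkpoint genes had the lowest role median (6 of 6 lower, median log2 difference -0.86). Ccne1, the cyclin that drives entry into S phase, was 29.1, 29.8, 41.1 and 34.6 CPM against 65.5, 65.9, 68.0 and 63.2 CPM (log2 difference -0.98, SE 0.08, adjusted p = 5.47e-07). Clspn, the adaptor of the replication checkpoint, was 64.2, 44.6, 75.5 and 65.9 CPM against 112, 106, 116 and 112 CPM (log2 difference -0.85, SE 0.09, adjusted p = 5.12e-06). The classes did not overlap for either. E2f1 was the member with the weakest separation: 18.2, 17.7, 23.4 and 22.4 CPM against 28.1, 25.04, 23.3 and 25.5 CPM (log2 difference -0.33, SE 0.12, adjusted p = 0.0364), higher in the TIGIT-knockout library and lower in the other 3.

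Genes of the same process outside the set moved the same way in most cases. Of 55 other replication genes, 46 were lower and 2 higher in Treg-origin cells. Of the 2 most abundant, Nme1, a nucleoside diphosphate kinase, had a log2 difference of -0.33 (SE 0.04), and Samhd1, which degrades deoxynucleotides, of 1.22 (SE 0.05, adjusted p = 1.41e-09), at a mean of 514 CPM against 218 CPM in CD4 cells. Tk2, the mitochondrial thymidine kinase, was the other higher gene, at 0.62. Of 39 mitosis genes, 38 were lower and 1 higher (Pttg1, 0.20), with a median of -0.63. Of 19 G1 and cell-cycle entry regulators, 7 were lower and 3 higher: Ccnd2, the cyclin D2 gene (0.82), Cdkn1b, which encodes the inhibitor p27 (0.81), and Rbl2, a retinoblastoma family member (1.24). Tk2, Pttg1, Cdkn1b and Rbl2 were named after their values were seen.

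Other properties of the Treg-origin sums differed from the CD4 sums as well. Cells were shallower (medians of 3922 to 5372 against 7040 to 9013 UMIs), and with every cell thinned to 2000 UMIs, 40 of the 44 members were lower. Treg-origin cells were taken by antibody ratio alone, whereas CD4 cells also had to show more Cd4 than Cd8a plus Cd8b1 UMIs. Only 185, 153, 210 and 165 Treg-origin cells met that rule, and with these alone 39 of the 44 members were lower. Markers of other cells were partly higher in the Treg-origin class. Of 5 B cell markers, 4 were detected there, with a sum of 190 to 708 CPM against 70.9 to 84.5 CPM, and Pax5 was at 0. All 6 neutrophil markers summed to 3.90 to 1795 CPM against 3.61 to 136 CPM, and all 6 erythroid markers to 16.2 to 997 CPM against 18.0 to 54.4 CPM. Their part in the member differences was not tested.

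Conventional CD8 cells carried more replication RNA than conventional CD4 cells. The members summed to 6129, 5613, 6257 and 5952 CPM in CD8 cells (5988 ± 280, SD, n = 4), above the CD4 sum of the same library in 4 of 4 libraries and above every CD4 library. In the same edgeR test, 43 of 44 members were higher in CD8 cells and 1, Tyms, was lower, where 22.9% of 11490 genes were higher and 23.7% lower. The differences were small and even: the median log2 difference was 0.28 and the largest 0.41 (Chaf1b and Mcm10). The 2 classes' CPM did not overlap for 36 members, against 12.9% of all genes in that direction.

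Every licensing gene was higher in CD8 cells (10 of 10, median log2 difference 0.31). Mcm3 was 263, 238, 258 and 251 CPM in CD8 cells (log2 difference 0.34, SE 0.02, adjusted p = 1.89e-07), and Cdc6 was 37.5, 31.1, 40.2 and 32.2 CPM (log2 difference 0.40, SE 0.04, adjusted p = 1.32e-05). For both genes the 4 CD8 values lay above the 4 CD4 values. Ccne1 was 86.3, 77.2, 87.2 and 91.6 CPM (log2 difference 0.39, SE 0.04), and Dut was 813, 748, 847 and 817 CPM (log2 difference 0.31, SE 0.02, adjusted p = 2.92e-07). Pclaf, at 853, 829, 905 and 819 CPM, was the most abundant member in CD8 cells.

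Tyms stood apart from the other members of nucleotide supply. It was 236, 223, 244 and 226 CPM in CD8 cells, each below the 255, 229.6, 262 and 231 CPM of the CD4 cells in the same library, although the ranges of the classes overlapped (log2 difference -0.06, SE 0.02, adjusted p = 0.0369). The call was lost without the wild-type library, without the TIGIT-knockout library, with DESeq2, with its size factors and without the library block. With cells thinned to 2000 UMIs the log2 difference was 0.05. By comparison, Rrm2 in CD8 cells was 443, 394, 473 and 390.4 CPM (log2 difference 0.29, SE 0.02), higher than in CD4 cells of each library.

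**Figure D2:**
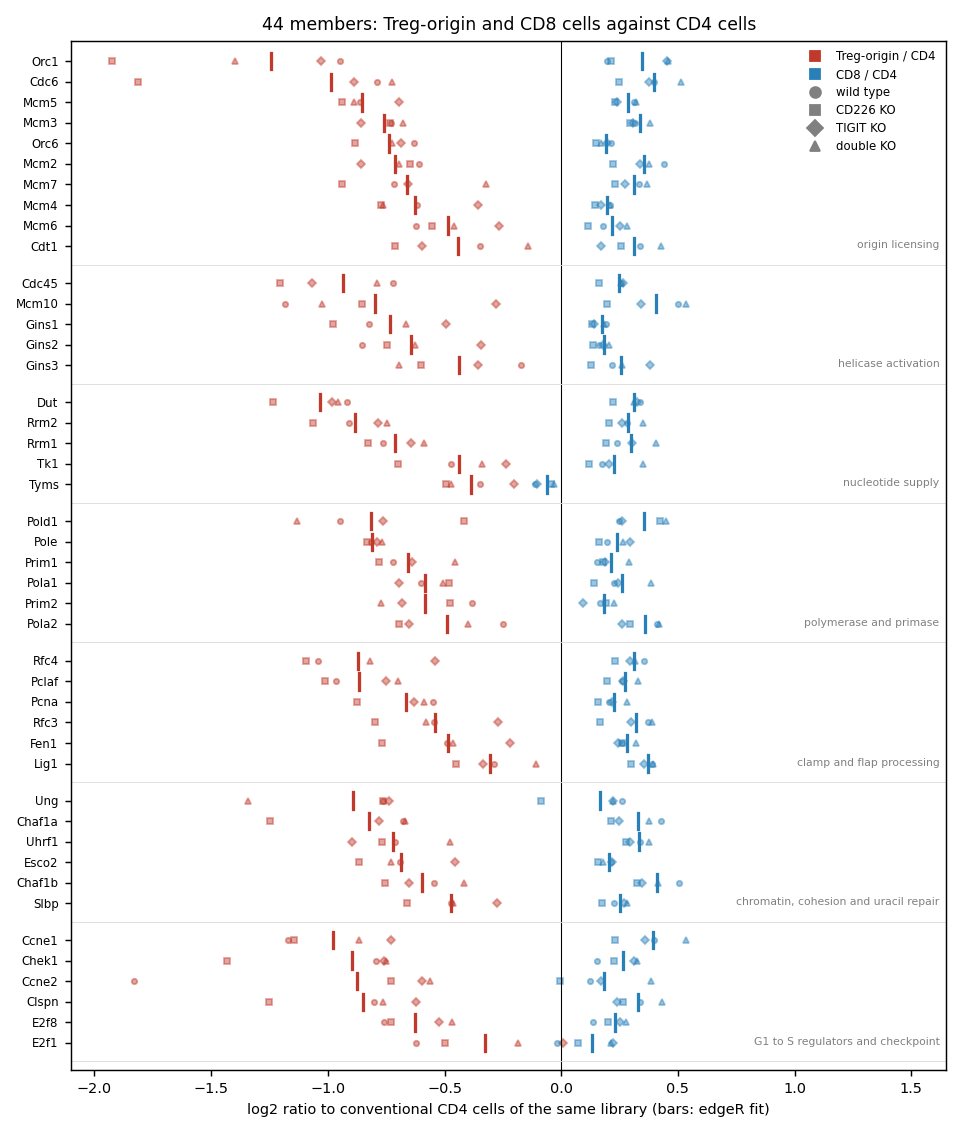
Log2 ratio of each member to the conventional CD4 cells of the same library, for Treg-origin (red) and CD8 cells (blue), with 1 symbol per library and the fitted edgeR value as a bar, grouped by role. All fitted Treg-origin values lie below 0, from -1.246 to -0.30, and all fitted CD8 values except that of Tyms lie above 0.

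Other replication genes were higher in CD8 cells for 48 of 55 and lower for 0. Mitosis genes moved less than the members: 21 of 39 were higher and 1 lower (Ube2c, an ubiquitin-conjugating enzyme of anaphase, at -0.12), with a median log2 difference of 0.11. Of 19 G1 regulators 6 were higher and 7 lower, among them Ccnd2 (-0.58, SE 0.02). CD8 cells were deeper, with medians of 8887 to 11900 UMIs, and on thinned cells 39 members were higher.

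Cells in which no member was detected were more frequent in the Treg-origin class. After thinning to 2000 UMIs, which left out 14 to 57 Treg-origin, 12 to 27 CD4 and 9 to 23 CD8 cells per library, 17.6% to 22.9% of Treg-origin cells had no UMI of any member, against 7.16% to 8.75% of CD4 and 2.01% to 2.94% of CD8 cells. Unthinned, the shares were 7.63% to 13.4%, 1.13% to 2.10% and 0.286% to 0.517%. The 3 classes did not overlap in either count. Conventional cells entered only with an excess of Cd4 or of Cd8a plus Cd8b1 UMIs, a rule not set for Treg-origin cells. Its part in the shares was not tested. No class that lacks these transcripts was at hand to measure free RNA.

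To place the members along the cell cycle with genes outside the set, cells were thinned to 2000 UMIs and ordered by their UMIs of 39 mitosis genes into 4 ranges: 0, low (1 to 7), mid (8 to 16) and high (at least 17, the 75th percentile of conventional cells). These are ranges of a count and not measured phases. Among CD4 cells, 106 to 171 per library lay within 1 UMI of the upper limit. The high range held 24.3% to 27.6% of CD4, 27.4% to 29.8% of CD8 and 10.8% to 17.5% of Treg-origin cells, and the mid range 18.1% to 22.7%, 30.4% to 35.8% and 7.62% to 12.3%.

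In CD4 cells, 40 members were higher in the high than in the 0 range and 1, Ung, was lower, where 26.4% of 9563 genes were higher and 26.3% lower (edgeR, library as a block, n = 4). Orc1, Cdc6 and Ccne2 did not pass the test. The median log2 difference was 1.34, but the roles differed widely: 2.77 in nucleotide supply, 1.64 in polymerase and primase, 1.57 in clamp and flap processing, 1.44 in helicase activation, 1.07 in chromatin, cohesion and repair, 0.90 in regulators and 0.44 in licensing. Esco2, the cohesin acetyltransferase of S phase, rose most. It was at 1.17 ± 1.16 CPM (SD, n = 4) in the 0 range and 96.3 ± 2.39 CPM in the high range (log2 difference 6.28, SE 0.20, adjusted p = 1.78e-16). E2f8, a repressor of the E2F family, rose by 3.796, Pclaf by 3.71 and Rrm2 by 3.596 on the log2 scale. Esco2 and E2f8 were named after their values were seen. With the upper limit at the 90th percentile (at least 27 UMIs), 31 of the 44 members were higher and 4 lower.

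Most members were highest below the top range of mitosis counts. In CD4 cells, 38 of the 44 had their highest mean in the mid range, and 31 of these were highest there in all 4 libraries. The members' sum was 1698 ± 206, 4530 ± 147, 6386 ± 186 and 5269 ± 245 CPM from the 0 to the high range. In 4 of 4 libraries, 36 members were higher in the mid than in the high range. Mcm3 was 112 ± 12.4, 236 ± 11.3, 253 ± 5.53 and 149 ± 18.6 CPM, and Ccne1 73.0 ± 4.11, 94.5 ± 5.36 and 46.0 ± 2.79 CPM from the low to the high range. Both had thus fallen well below their mid level in the high range.

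Cdc6 and Ung were the 2 members highest at low mitosis counts. Ung was 27.8 ± 10.995, 58.6 ± 0.983, 43.4 ± 3.78 and 8.95 ± 2.19 CPM, highest in the low range in 4 of 4 libraries and lower in the high than in the 0 range (log2 difference -1.65, SE 0.17, adjusted p = 7.92e-08). Cdc6 was 9.63 ± 3.89, 38.1 ± 4.48, 38.0 ± 6.26 and 11.3 ± 2.16 CPM, with no difference between the low and the mid range beyond their spread. At the other end, Rrm1, Tyms, Pclaf and Esco2 were highest in the high range, in 4 of 4 libraries. Pclaf was 78.0 ± 18.4, 446 ± 31.1, 880 ± 56.9 and 1013 ± 39.6 CPM.

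**Figure D3:**
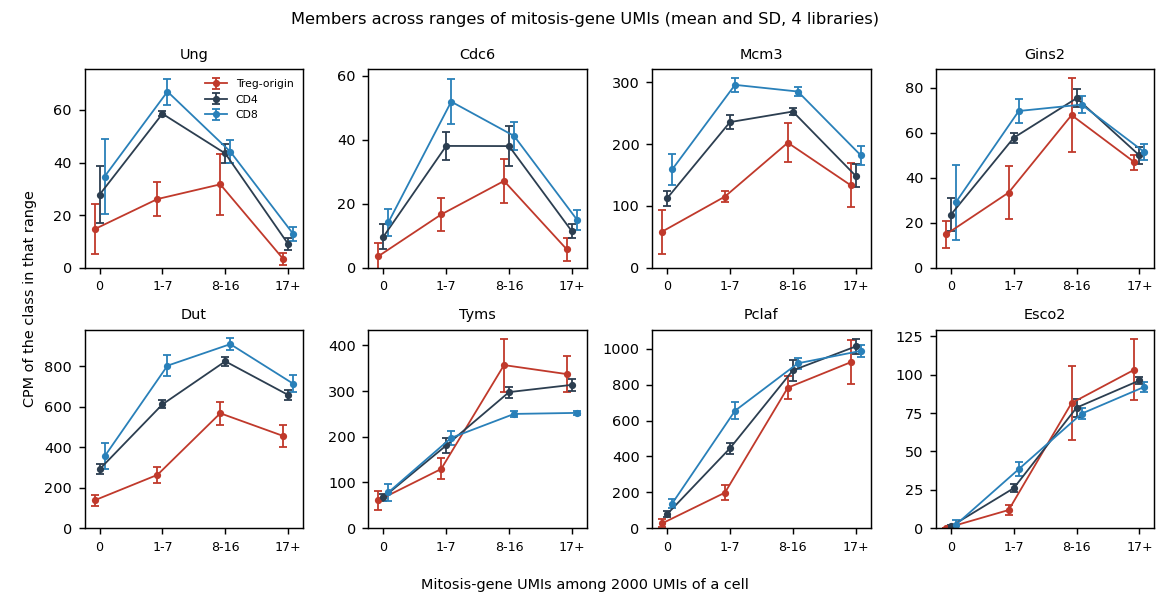
CPM of 8 members (mean and SD of 4 libraries) in cells with 0, 1 to 7, 8 to 16 and at least 17 mitosis-gene UMIs among 2000, in 3 classes. Ung, Cdc6, Mcm3 and Gins2 fall between the mid and the high range, while Pclaf and Esco2 continue to rise. Tyms in the mid and high ranges is lower in CD8 than in CD4 cells, and Dut is lower in Treg-origin cells in every range.

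The order was shifted in CD8 cells. There 25 members were highest in the mid range, 14 in the low range and 5 in the high range, and 12 members were higher in the low than in the mid range in all 4 libraries, against 1 in CD4 cells. The difference between the classes in these counts was not tested. The 14 included the licensing genes Orc1, Orc6, Cdc6, Mcm2, Mcm3, Mcm4 and Mcm6. Mcm3 in CD8 cells was 159 ± 24.8, 296 ± 10.9, 285 ± 6.75 and 182 ± 15.4 CPM. Of the CD8 peaks, 14 of 25, 11 of 14 and 2 of 5 were in the same range in all 4 libraries. In Treg-origin cells 34 members were highest in the mid and 10 in the high range, but in all 4 libraries this held for only 16 and 1 of them, with 24 to 50 cells per library in the mid and 34 to 71 in the high range.

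In the mid and high ranges of mitosis counts, the median difference between Treg-origin and CD4 cells was smaller than in all cells. The low range was not fitted. There the members' sum was 2344 ± 260 CPM in Treg-origin and 4530 ± 147 CPM in CD4 cells, and the classes did not overlap. Among cells with no mitosis UMI, 4 of 32 members tested were lower (Mcm3, Dut, Pclaf and Mcm4) and 0 higher, against 7.35% of genes lower. The median log2 difference of -0.55 covers the 32 members tested and not all 44. Some members differed more there than in all cells, such as Pclaf (-1.52 against -0.87). Others differed less, such as Tyms (-0.19 against -0.39). In the mid range 3 of 44 were lower (Dut, Mcm2 and Ccne1) and 1 higher (Lig1), median -0.15, against 3.1% and 4.81% of genes. In the high range 5 were lower (Dut, Pcna, Mcm5, Cdc45 and Rfc4) and 0 higher, median -0.18, against 5.4% of genes lower. These sums hold few Treg-origin cells, so a member outside the calls is not shown to be equal. The mid and high ranges were compared after the data had been seen.

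Dut was lower in Treg-origin cells in all 3 ranges tested. In the mid range it was 507, 539.5, 632 and 595 CPM against 792, 840.1, 841 and 828 CPM in CD4 cells (log2 difference -0.53, SE 0.07, adjusted p = 1.7e-08), and in the high range 514, 469, 460.5 and 381 CPM against 640.4, 656, 694 and 645 CPM (log2 difference -0.56, SE 0.07, adjusted p = 5.49e-07). Its values in the 2 classes did not overlap in either range. In cells with no mitosis UMI the log2 difference was -1.11 (SE 0.11, adjusted p = 6.04e-08). Tyms, the next enzyme of the same branch, was 360.1, 332, 436 and 299 CPM in Treg-origin cells of the mid range against 306, 287.5, 310.0 and 287 CPM, and did not pass the test (log2 difference 0.27, SE 0.09, adjusted p = 0.0568). Lig1 was the 1 member higher in Treg-origin cells, in the mid range (log2 difference 0.36, SE 0.11, adjusted p = 0.0303).

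Of the ranges fitted, cells with no mitosis UMI showed the largest median difference between CD8 and CD4 cells. The low range was not fitted. There the members' sum was 5896 ± 379 CPM in CD8 and 4530 ± 147 CPM in CD4 cells. Of 36 members tested in cells with no mitosis UMI, 22 were higher in CD8 cells and 0 lower (median log2 difference 0.63), against 4.35% of genes higher. These sums held few CD8 cells (63, 116, 92 and 132 per library), and the median covers the 36 members tested and not all 44. In the mid range 8 of 44 were higher and 1 lower (median 0.08), against 9.25% and 9.66% of genes, and in the high range 21 were higher and 1 lower (median 0.12), against 13.9% and 14.2% of genes. Pclaf, for example, had a log2 difference of 0.88 (SE 0.11, adjusted p = 2.39e-06) in cells with no mitosis UMI and of -0.02 (SE 0.02, adjusted p = 0.451) in the high range. Licensing genes were among those higher in the high range, such as Mcm3 (0.31, SE 0.03, adjusted p = 1.43e-07) and Cdc6 (0.41, SE 0.09, adjusted p = 0.000896), and Ung was higher there as well (0.53, SE 0.10, adjusted p = 0.000461).

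Tyms was the 1 member lower in CD8 cells, in both the mid and the high range. In the mid range it was 249, 249, 259.8 and 242 CPM in CD8 cells against 306, 287.5, 310.0 and 287 CPM in CD4 cells (log2 difference -0.24, SE 0.03, adjusted p = 1.96e-05). In the high range it was 252, 249, 259 and 249.5 CPM against 321, 306, 328 and 299.5 CPM (log2 difference -0.30, SE 0.03, adjusted p = 5.12e-09). The classes did not overlap in either range, whereas in cells with no mitosis UMI the log2 difference was 0.20 (SE 0.13, adjusted p = 0.455). Rrm2, which supplies the same pathway from ribonucleotides, differed by 0.06 (SE 0.03, adjusted p = 0.152) and -0.02 (SE 0.02, adjusted p = 0.493) in these 2 ranges.

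**Figure D4:**
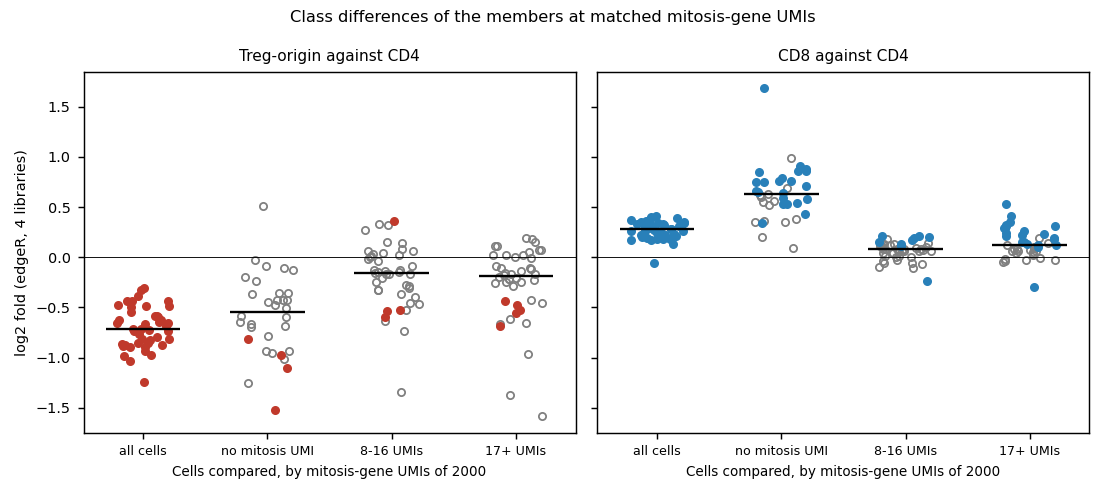
Log2 difference of each member from CD4 cells in all cells and within ranges of mitosis-gene UMIs, for Treg-origin cells (left) and CD8 cells (right), with the median as a line. Filled points passed an adjusted p of 0.05, and open points did not. The Treg-origin median is -0.71 in all cells, -0.55 with no mitosis UMI (32 members tested), and -0.15 and -0.18 in the mid and high ranges. The CD8 median is 0.28 in all cells, 0.63 with no mitosis UMI (36 members tested), and 0.08 and 0.12 in the mid and high ranges. The low range was not fitted and is not shown.

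The genotype of the Treg cells was compared between single libraries, so no test was made and intervals hold counting error only. In Treg-origin cells the members' sum was lower where CD226 was absent: the ratio was 0.865 (95% interval 0.833 to 0.898) for CD226 knockout over wild type and 0.897 (0.867 to 0.928) for double over TIGIT knockout. It was higher in the libraries labelled as lacking TIGIT, at 1.11 (1.07 to 1.14) for TIGIT knockout over wild type and 1.15 (1.10 to 1.19) for double over CD226 knockout. All 4 ratios turned with a stricter antibody limit of -1.5, which kept 180, 131, 190 and 203 Treg-origin cells: they were then 1.02, 1.05, 0.962 and 0.988. TIGIT-deficient and TIGIT-bearing libraries also came from different sequencing lanes (4 and 3), which cannot be told apart from TIGIT.

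The libraries differed more among the cells with antibody ratios between -1.5 and -0.6 than below. Between these limits the members' sum was 2902, 2206, 3565 and 2815 CPM, and in the cells below -1.5 it was 3273, 3345, 3147 and 3304 CPM, nearly level over the 4 genotypes. Both sets were of Treg-donor sex, with Xist at 683 to 751 CPM below -1.5 and 686 to 762 CPM between the limits, and Foxp3 was 49.6 to 68.7 and 39.0 to 67.2 CPM. The high mitosis range held 10.5%, 6.74%, 18.6% and 12.9% of the cells between the limits and 16.3%, 17.2%, 15.8% and 13.6% of those below -1.5. The parts of the mitosis count and of the antibody ratio in the sums were not tested.

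**Figure D5:**
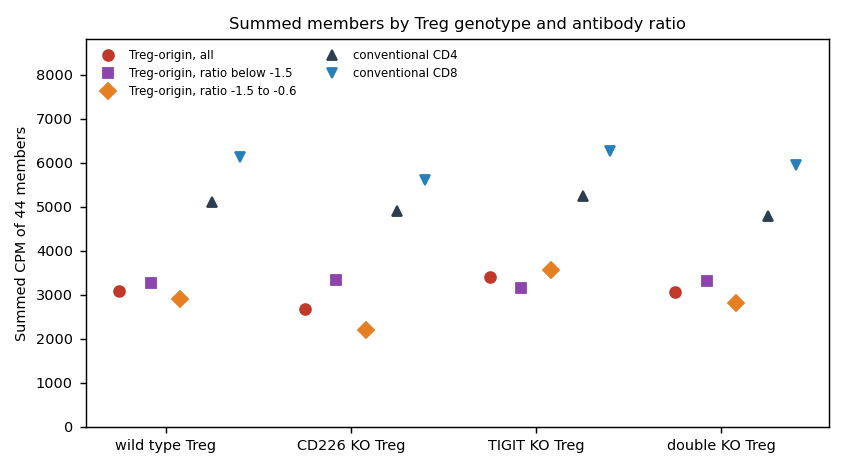
Summed CPM of the 44 members in each library for all Treg-origin cells, for those with an antibody ratio below -1.5 and between -1.5 and -0.6, and for CD4 and CD8 cells. Below -1.5 the 4 libraries run from 3147 to 3345 CPM, and between the limits from 2206 to 3565 CPM.

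Of the 32 members averaging 20 CPM or more in Treg-origin cells, 8 were at or below 0.8 of wild type in the CD226 knockout, against 10% of genes, and 6 at or below 0.8 of the TIGIT knockout in the double knockout, against 9.67%. Higher by at least the same factor were 6 members in TIGIT knockout over wild type, against 8.9% of genes, and 7 in double over CD226 knockout, against 12.2%. Past that factor in the other direction were 0 members in each of the 4 contrasts, in the order given above, against 8.66%, 9.75%, 6.81% and 7.99% of genes. Of the 32, 19 were lower in both CD226 contrasts, which share no library, against 29.0% of all genes. Tyms was 0.814 (0.700 to 0.945) and 0.729 (0.633 to 0.839) in these 2 contrasts, and Rrm2 was 0.842 (0.724 to 0.979) and 0.796 (0.694 to 0.913). Pcna was 0.741 (0.607 to 0.903) in the first and 0.992 (0.825 to 1.19) in the second, and Dut 0.799 (0.712 to 0.897) and 0.990 (0.891 to 1.10). Their reductions were therefore seen in 1 contrast only.

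The wild-type conventional cells of the same libraries moved in the same direction as the Treg-origin cells in both CD226 contrasts. The members' sum in CD4 cells was 0.962 (0.955 to 0.969) for CD226 knockout over wild type and 0.913 (0.905 to 0.920) for double over TIGIT knockout, and in CD8 cells 0.916 (0.910 to 0.922) and 0.951 (0.945 to 0.957). Of 39 members measured in CD4 cells, 29 were lower in both contrasts, against 31.1% of all genes, and of 40 in CD8 cells 29 were, against 29.6%. Past the same factor, 2 members were lower in CD4 cells for double over TIGIT knockout, against 1.49% of genes, and 1 in CD8 cells for CD226 knockout over wild type, against 1.78%. For TIGIT knockout over wild type the sums were 1.03 (1.02 to 1.04) in CD4 and 1.02 (1.01 to 1.03) in CD8 cells, and for double over CD226 knockout 0.976 (0.968 to 0.983) and 1.06 (1.05 to 1.07).

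Exonic bases are shared by 11 members with a gene on the other strand in GENCODE vM21, and whether the counting used strand is not given in the sources used here: Orc6, Mcm7, Cdc45, Gins2, Tk1, Pole, Rfc4, Fen1, Lig1, Chaf1a and Ccne2. Their values may therefore hold reads of the partner gene. The 4 libraries, which differ in Treg genotype, served as replicates of each class, and the p-values measure the spread between these pools.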

How the data were processed

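The deposited values were UMI counts of genes and of 2 barcoded antibodies in each cell of each library. The authors made them, per the submitters' processing notes, with Cell Ranger 3.1.0 and the mm10 genome. Cells passed with 500 or more genes and a mitochondrial share of UMIs up to 10%. Per library, 434 to 1144 kept cells between the antibody limits (counts plus 1, log2) and 1565 to 2775 conventional cells with equal Cd4 and Cd8a plus Cd8b1 UMIs were left out, and 94 to 187 lay within 0.4 of the Treg limit. The Treg-origin class held 10 to 22 cells with more Cd8a and Cd8b1 than Cd4 UMIs. Library pairs shared 16 to 27 kept barcodes. No doublet caller was used.

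Sums of UMIs over each class of a library were fitted over all genes with edgeR 4.0.16 (R 4.3.3; low genes removed by filterByExpr, TMM scaling, quasi-likelihood test, library as block), with Benjamini-Hochberg adjustment and a threshold of 0.05; an SE is the log2 difference divided by the root of the F statistic, without sign. The block pairs classes summed from the same library. Checked on simulated data, the fit recovered set changes. These were larger than every CD8 against CD4 difference of a member in all cells and than the smaller Treg-origin differences. Changes as small as those were not checked. Genotype ratios carry exact conditional binomial 95% intervals for genes with at least 20 CPM, called at 1.25 or 0.8. DESeq2 1.42.0 was an alternative.

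One marker of another cell type is not reported here. The members and lists were chosen with earlier results of these data known. Named with values were, in each role, the 2 members highest in level and the 2 with the largest Treg-origin difference, and in other lists the 2 highest in level; further names were chosen after their values were seen.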

Additional observations from a re-analysis of the deposited data

Results flagged for a closer look

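Of 91 sets of 4 within-library ratios or class sums, 6 had 1 library far from the other 3 by Dixon's ratio, where chance alone gives about 1 in 20. Cdc6 in the CD226-knockout library had a Treg-origin over CD4 ratio of 0.284 (13 UMIs), against 0.541 to 0.605 in the others. Chek1 in the same library had 0.371 (11 UMIs), against 0.577 to 0.595. Ung in the double-knockout library had 0.394 (29 UMIs), against 0.588 to 0.600, and Ccne2 in the wild-type library 0.281 (9 UMIs), against 0.602 to 0.677. These 4 rest on few UMIs. For CD8 over CD4 cells, the CD226-knockout library had the low value of Cdc45, 1.12 against 1.19 to 1.20, and of Ung, 0.943 against 1.16 to 1.20, the latter the 1 library in which Ung was lower in CD8 cells.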

How the results depend on the processing

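The count of 44 members lower in Treg-origin than CD4 cells was 42 with DESeq2, 44 without the replicate block (the pairing by library), 40 on thinned cells, 38 with stricter antibody limits and 42 to 43 when each library was left out. It was 39 with only the Treg-origin cells that had more Cd4 than Cd8a plus Cd8b1 UMIs. Of the members higher in CD8 cells, 38 were called with DESeq2, 39 without the replicate block and 39 to 42 with a library left out. The 1 member called lower, Tyms, became 0 with DESeq2, with its size factors, without the replicate block, on thinned cells (log2 difference 0.0485) and in cells with no mitosis UMI (0.197), and 0 to 1 with a library left out. For high against no mitosis UMIs, the counts were 39 higher and 1 lower without the replicate block.

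Restriction to the mitosis ranges that were fitted removed most Treg-origin calls (4, 3 and 5 lower with no mitosis UMI, in the mid and in the high range). It also removed many CD8 calls (22, 8 and 21 higher). Fewer cells and genes entered. The low range was not fitted. The mid and high ranges were chosen after seeing the data. Treg-origin log2 differences that turned were E2f1 (0.507) with no mitosis UMI, Cdt1 (0.064), Cdc45 (0.0329), Gins3 (0.146), Tyms (0.267), Tk1 (0.336), Pola1 (0.004), Pola2 (0.0211), Prim2 (0.319), Fen1 (0.0458), Lig1 (0.361), Esco2 (0.0642), E2f1 (0.0783), E2f8 (0.009) and Ccne2 (0.148) in the mid range. In the high range Mcm10 (0.0245), Gins3 (0.181), Tyms (0.0721), Tk1 (0.189), Pola1 (0.0247), Pola2 (0.0027), Fen1 (0.117), Lig1 (0.0732), Uhrf1 (0.111), Esco2 (0.0503), E2f8 (0.149) and Clspn (0.0229) turned. For CD8 cells, Gins1 (-0.0966), Gins2 (-0.0398), Prim2 (-0.024), Esco2 (-0.0578), E2f1 (-0.103), E2f8 (-0.0588) and Ccne2 (-0.0656) turned in the mid range, and Orc6 (-0.0098), Rrm2 (-0.0232), Tk1 (-0.0312), Pclaf (-0.0216), Esco2 (-0.0498) and E2f8 (-0.0404) in the high range. The cause was not tested.

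With the mitosis limit at the 90th percentile, 31 members were higher and 4 lower. Cdc6 (-0.732) and Mcm6 (-0.323) turned and passed the edgeR test as lower (adjusted p = 0.0137 and 0.000268), and E2f1 (-0.0223) turned. In CD8 in place of CD4 cells, 29 members were higher and 1 lower, and Orc1 (-0.323), Cdc6 (-0.0678) and Mcm6 (-0.169) turned. With a library left out, the log2 difference of Ccne2 ran from -0.148 to 0.148 (0.0004 without the wild-type library), and that of Cdc6 from -0.0143 (without the TIGIT-knockout library) to 0.379.

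The summed ratios by genotype moved with the cells used, and the cause was not tested. In the order CD226 knockout over wild type, double over TIGIT knockout, TIGIT knockout over wild type and double over CD226 knockout, stricter antibody limits gave 1.02, 1.05, 0.962 and 0.988 in Treg-origin cells, and cells with no mitosis UMI 0.618, 0.381, 1.24 and 0.763. Thinning gave 0.812, 0.780 and 1.20 for the first 3, and a stricter cell filter 1.15 for TIGIT knockout over wild type. In CD4 cells, TMM scaling gave 0.972, 0.901, 1.04 and 0.966, and cells with no mitosis UMI 0.853, 1.08, 0.755 and 0.957. Thinning gave 0.930 for the first and 0.9996 for the last, and stricter antibody limits 0.9498 for the first and, for TIGIT knockout over wild type, 1.02. In CD8 cells, TMM scaling gave 0.930, 0.939 and 1.05 for the first 3, cells with no mitosis UMI 0.885, 1.41, 0.807 and 1.29, thinning 0.933, 1.04 and 1.07 for the last 3, stricter antibody limits 0.970, 1.04 and 1.10 for the last 3, and a stricter cell filter 0.960 and 1.01 for the middle 2.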
